A study of Oryctolagus cuniculus with 6 samples.

Results

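Gene expression levels of the untreated rabbit blastocyst at 6 days of age were read from the control channel of each of 6 two-colour Agilent arrays, which are 6 of the 12 channels of the series. Each array paired a control sample with embryos that had been vitrified (3 arrays) or slowly frozen (3 arrays) before transfer to recipient females, and the treated channels were not used. All control embryos were New Zealand White blastocysts aged 6 days, described as untreated and as grown in vivo, and the labels call the 3 controls biological replicates. The same control name stands on the vitrified and on the frozen array of a number, so the 6 channels were taken as 3 extracts measured on 2 arrays each. Extracts 1 and 3 were labelled with Cy3 (green) on both of their arrays and extract 2 with Cy5 (red). Dye and extract thus cannot be told apart for extract 2. The arrays lay on 2 slides. Both arrays of extract 1 were on slide 1 and both of extract 3 on slide 2, so slide and extract cannot be told apart for these. The vitrified array of extract 2 was on slide 2 and its frozen array on slide 1. Vitrified and frozen arrays are therefore not balanced over the slides. How many embryos went into an extract is not given in the sources used here.

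A blastocyst of this age is a fluid-filled ball. Its outer epithelium, the trophectoderm, pumps sodium into the cavity so that water follows, and holds the fluid in with tight junctions; the inner epiblast forms the body of the embryo, and the hypoblast under it lines the cavity and secretes serum-type proteins. The rabbit blastocyst expands greatly at this time and is still free in the uterus, where it takes up uterine secretions.

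The level of a probe was its mean pixel signal minus the local background, called the net signal, and was turned into a percentile among the 43603 probes of the channel: a probe at the 95th percentile outshone 95% of all probes. Percentiles were averaged over both arrays of an extract, and each value below is the mean ± SD over 3 extracts (n = 3) unless stated. A named gene was given by its brightest probe. A percentile orders signals that also depend on how well each 60-base probe binds, so it ranks signals and not transcript numbers, and below the detection limit percentiles have no order. A probe was called detected on a channel when the scanner software flagged it as well above background. The number of channels of a gene is that of its probe detected on the most channels.

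Of 9690 named genes, 5436 (56.1%) were detected on all 6 control channels, 2790 on 1 to 5 and 1464 (15.1%) on none. The last count depends on the flag and the red extract: it was 248 with the scanner's flag for positive and significant signal and 2416 without replicate 2, so undetected here means not well above background. Over all probes these shares were 44.1% on all 6 channels and 28.6% on none. The median named gene lay at the 60.3rd percentile, and 445 named genes (4.59%) lay above the 95th. The 6 channels detected between 44.8% and 69.9% of their probes, the red ones most. The rank order of probes was alike between channels, with Spearman correlations from 0.941 to 0.977 for channels of the same extract number and from 0.929 to 0.954 for the others. The control channel of replicate 3 on the vitrified array had the lowest share, and it correlated at 0.941 with its own number and at most at 0.935 with the other extracts. Against this, replicate 3 on the frozen array correlated at 0.954 with replicate 1 on the vitrified array, more than with its own number. The spike-in RNAs stood in different ratios on the 2 control channels of each number. The ratio of spike-in E1A_r60_n9 to E1A_r60_a22 was 15.7, 0.250 and 14.04 for replicates 1, 2 and 3 on the vitrified arrays and 0.161, 10.8 and 0.154 on the frozen arrays. Both control channels of a number thus did not carry the same mixture, and a difference between them is not of the array alone. Whether their embryo RNA was the same was not tested, and 3 extracts are taken from the labels. The labels do not say which spike-in mix went with which sample, and no level below uses the spike-in spots.

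The sequences of 8 probes show what was measured at both ends of the range. They stand for the ribosome (RPLP1), the ATP synthase (ATP5F1A), the epithelial cytoskeleton (KRT8), the sodium pump (ATP1B1), a pluripotency factor (POU5F1), a trophectoderm factor (GATA3), the immunoproteasome (PSMB8) and germ cells (DAZL). The first 6 were detected on all 6 channels and the last 2 on none.
RPLP1: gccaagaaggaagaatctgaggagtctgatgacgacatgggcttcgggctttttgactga
ATP5F1A: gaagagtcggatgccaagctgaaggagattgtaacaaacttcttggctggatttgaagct
KRT8: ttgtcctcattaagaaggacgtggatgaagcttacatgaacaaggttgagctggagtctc
ATP1B1: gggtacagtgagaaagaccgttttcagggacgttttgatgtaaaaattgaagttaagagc
POU5F1: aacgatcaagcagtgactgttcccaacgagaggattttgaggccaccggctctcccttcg
GATA3: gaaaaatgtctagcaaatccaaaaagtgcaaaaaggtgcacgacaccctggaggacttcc
PSMB8: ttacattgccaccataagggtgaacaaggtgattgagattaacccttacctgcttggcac
DAZL: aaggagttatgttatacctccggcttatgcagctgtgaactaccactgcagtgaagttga
The array files place the ATP5F1A probe at chr9:87502369-87502428, the ATP1B1 probe at chr13:23871750-23871809 and the POU5F1 probe at chr12:20169066-20169125, all on the minus strand, and the GATA3 probe at chr16:12463688-12463747 on the plus strand. The RPLP1 probe is listed as unmapped. The KRT8, PSMB8 and DAZL probes cover intervals longer than their 60 bases (chr4:36816147-36816571, chr12:23359095-23359308 and chr14:2632753-2633804, all minus). The genome build of these coordinates is not given in the sources used here.

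Genes for making protein and ATP filled the top of the ranking. Among the 25 highest named genes, 11 encode cytosolic ribosomal proteins, led by RPL26 (99.89 ± 0.05), RPLP1 (99.87 ± 0.11), RPL37 (99.86 ± 0.07) and RPL5 (99.81 ± 0.10). The others of known role included the translation elongation factor subunit EEF1B2 (99.87 ± 0.07, with the lowest of its 6 probes at 6.93), the ATP synthase subunits ATP5MC3 (99.81 ± 0.15), ATP5MG (99.72 ± 0.03) and ATP5F1A (99.49 ± 0.19), the respiratory chain subunit UQCRQ (99.47 ± 0.24), the mitochondrial ADP/ATP carrier SLC25A4 (99.47 ± 0.32), the mitochondrial chaperonin subunit HSPE1 (99.69 ± 0.17), the iron store subunits FTH1 (99.63 ± 0.19) and FTL (99.47 ± 0.11), and actin ACTB (99.45 ± 0.60). The net signal of RPLP1 was 44962, 494167 and 77525 in extracts 1, 2 and 3 on the vitrified arrays and 51532, 394498 and 91223 on the frozen arrays. The red extract 2 gave by far the highest net signals, and its percentile for RPLP1 (99.93) lay between those of extracts 1 (99.74) and 3 (99.95). The remaining 4 of the 25 included ACTMAP, PTGER2 and METTL6, and the brightest probes of all 4 share a repeated sequence described further on.

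The 31 gene lists, made from textbook knowledge, held 1265 entries, of which 777 had a named probe, and the others are not analysed here. All 28 measured cytosolic ribosomal proteins were detected on all 6 channels, with a list median at the 99.4th percentile, and 27 of them lay above the 95th. The exception was RPL7, at 79.5 ± 1.6, whose other probe was lower still (60.4). All 27 measured translation factors were detected everywhere (median 97.1, 20 above the 95th percentile). EEF1D (99.34 ± 0.03), EEF1A1 and EEF1G were near the top, and EEF1A2, the elongation factor form of muscle and neurons, was the lowest at 66.2 ± 1.8.

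The respiratory chain and ATP synthase list had 42 measured genes, all detected on all 6 channels, with a median at 98.4 and 40 above the 95th percentile. The 2 that were not are the forms used in heart and skeletal muscle, COX7A1 (86.6 ± 1.6) and COX6A2 (60.7 ± 2.3), while COX6A1, the form of most tissues, was at 99.32 ± 0.08. Probes whose file description names NADH dehydrogenase (72 probes), ATP synthase (21) or mitochondrial ribosomal proteins (110) were each detected on all 6 channels without exception. Of 26 probes described as cytochrome c oxidase 23 were, with a median at 80.8, and 7 of them (26.9%) lay above the 95th percentile.

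The chaperone list had its median at 95.3, and 27 of 28 measured genes were detected on all 6 channels. HSPE1, CALR, PPIA and HSPD1 led, all above 99, and the cytosolic chaperonin subunits TCP1 (98.9 ± 0.1), CCT3 (98.8 ± 0.1) and CCT2 (98.5 ± 0.2) followed closely. CRYAB, a small heat shock protein of lens and muscle, was the lowest at 37.4 ± 11.4 and was detected on 4 channels.

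In the antioxidant list (median 95.1, 15 of 18 detected on all 6) FTH1 and FTL were followed by PRDX1 (98.7 ± 0.1) and SOD1 (97.7). NQO1 and CAT, which encodes catalase, were each detected on 4 channels, and SOD3, the secreted superoxide dismutase, on none.

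The proteasome list (median 93.2) split by subunit type. The 3 catalytic subunits of the standard proteasome PSMB6 (98.0 ± 0.1), PSMB5 (96.0 ± 0.2) and PSMB7 (93.6 ± 0.8) were detected on all 6 channels. Of their counterparts in the immunoproteasome, the interferon-induced form, PSMB10 was at 55.8 ± 2.9 and detected on 6, PSMB9 was detected on 1 and PSMB8 on none. The net signal of PSMB8 was between 6 and 65 on the 6 channels, while the negative-control spots had medians between 9.88 and 51.3.

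Glycolysis (median 91.4, 19 of 22 detected on all 6) was led by GAPDH (99.1 ± 0.1), ALDOA (98.7 ± 0.1), LDHB (98.2 ± 0.1) and PDHB, a subunit of pyruvate dehydrogenase. The liver form PKLR and the muscle form ENO3 were detected on 0 and 4 channels.

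Cell division genes were bright too. Their list had a median at 89.5, and 32 of 36 were detected on all 6 channels. CKS2 (98.12 ± 0.01), CCNB1 (97.71 ± 0.04), CDK1 (96.7 ± 0.1) and MCM7 (95.4 ± 0.4) were the highest; CCNE2 (41.8 ± 7.4) was the lowest and CDK2 and CCNA1 each reached about the 50th percentile on 4 channels.

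In sterol and fatty acid synthesis (median 85.8, 18 of 22 on all 6) EBP (95.4 ± 0.4), SCAP, SC5D and SQLE led, and FADS2, ACACA and SREBF2 were lowest, each detected on 5 channels. Among histones and chromatin regulators (median 85.4, 16 of 19 on all 6) NPM1, H3-3B, H3-3A and H2AZ2 were at 98 or higher. TET3 was detected on no channel and TET2 on 3.

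**Figure D1:**
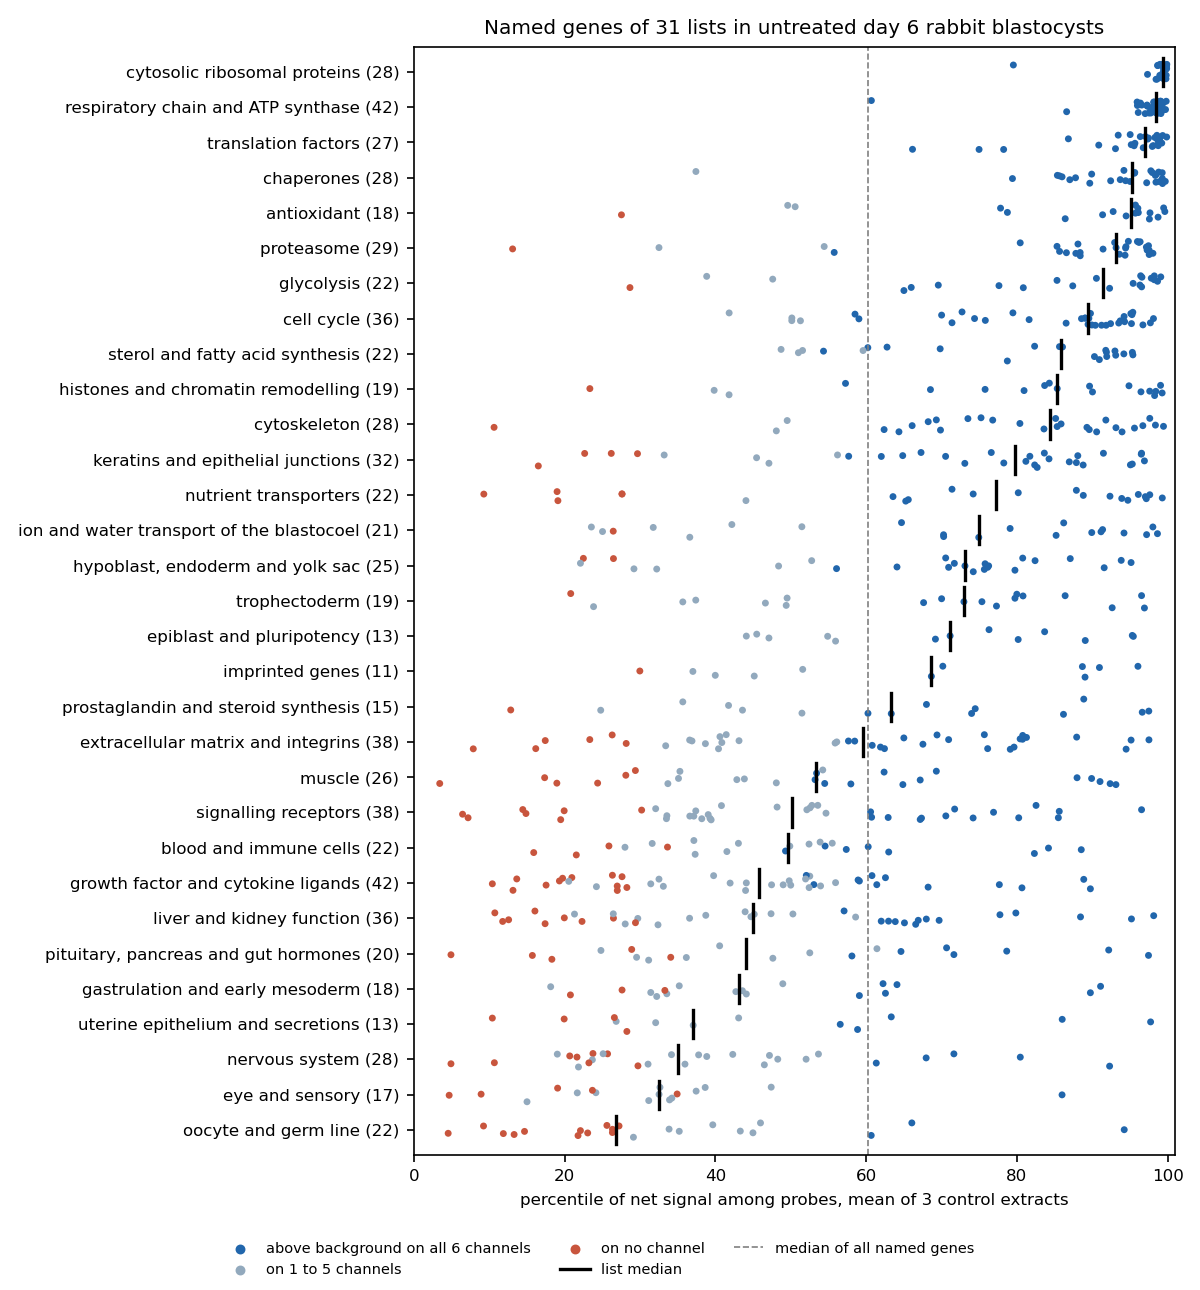
Each point is a named gene of 31 lists, placed by the percentile of its brightest probe (x axis, mean of 3 control extracts) and coloured by the number of control channels on which it was detected; black bars are list medians, the dashed line is the median of all named genes at 60.3, and measured genes per list stand in brackets. Medians run from 99.4 for cytosolic ribosomal proteins to 26.8 for oocyte and germ line genes, and red points, detected on no channel, carry no order among themselves.

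Genes of the blastocyst wall came next. Keratins and junction genes had a median at 79.7, with 24 of 32 detected on all 6 channels. The simple-epithelium keratins KRT8 (96.9 ± 0.3) and KRT19 (96.5 ± 0.4), the adhesion molecule EPCAM (96.5 ± 0.3) and the tight junction claudin CLDN7 (95.3 ± 0.1) were the highest. The keratins of skin KRT1, KRT5 and KRT10 and the claudin CLDN1 were detected on none. The net signal of KRT8 was 10547, 23810 and 10936 in extracts 1, 2 and 3 on the vitrified arrays and 9474, 28644 and 10769 on the frozen arrays, so the green channels lay close together and the red ones above them.

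In the cytoskeleton list (median 84.4, 25 of 28 on all 6) ACTB, TUBA1B (98.4 ± 0.1), ACTR3 and TUBA4A led. The smooth muscle actin ACTA2 was detected on no channel. ACTA1, the skeletal muscle actin, reached 93.1 ± 1.4. Its coding sequence is close to that of other actins, and whether its probe also binds those was not tested.

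The pump that drives blastocyst expansion was among the brightest products. ATP1B1 (98.65 ± 0.19), a beta subunit of the sodium pump, was highest in the list, which also held the chloride channel protein CLIC1 (97.2 ± 0.4) and carbonic anhydrase CA2 (94.2 ± 0.7). The water channels AQP5 (86.2 ± 2.3) and AQP3 (85.2 ± 1.1), outside the 4 highest, were detected on all 6 channels, while AQP9 and AQP4 were detected on 1 channel each and ATP1B2, the neural beta subunit, on none. The list as a whole had a median at 74.9, with 14 of 21 detected on all 6.

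Nutrient transport (median 77.2, 16 of 22 on all 6) was led by the fatty acid carrier FABP3 (99.3 ± 0.2), the glutamate transporter SLC1A1 (97.6 ± 0.1), the amino acid transporter SLC7A8 (97.2 ± 0.2) and the glucose transporter SLC2A1 (97.0 ± 0.3). LRP2, a receptor for endocytic uptake, was at 96.1 ± 0.5. The 5 that were detected on no channel were FABP4, SLC7A1, SLC2A2, SLC6A14 and TFR2.

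The label of the samples was checked against defining genes of the 3 blastocyst lineages. All 5 matched trophectoderm markers, all 3 matched epiblast markers and 3 of 4 matched hypoblast markers were detected on all 6 channels, beside 56.1% of all named genes and 3 of 4 matched uterine markers. Over the longer lists below the shares were 63.2% for trophectoderm, 61.5% for epiblast and 72.0% for hypoblast. In such bulk samples fewer cells of a type and less RNA per cell cannot be told apart. No probe was matched to NANOG, SOX2, KLF4, CDX2, EOMES, GATA6, SOX17 or PDGFRA, which are not analysed here.

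Among epiblast and pluripotency genes (median 71.1, 8 of 13 on all 6) GDF3 (95.5 ± 0.5), a growth factor of pluripotent cells, and POU5F1 (95.3 ± 1.2), a core pluripotency factor, stood highest, then DPPA5 (89.1 ± 1.0) and the DNA methyltransferase DNMT3B (83.7 ± 1.8). POU5F1 lay at 96.2, 95.7 and 94.0 in extracts 1, 2 and 3, and extract 3 was the lowest on both arrays, which share a slide. OTX2 (69.2 ± 3.0), a factor of epiblast and forebrain, was detected on all 6 channels, and its 5 probes lay between 66.0 and 69.2. NODAL, ETV4 and ETV5 were the lowest, each detected on 4 channels.

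In the trophectoderm list (median 73.0, 12 of 19 on all 6) the structural genes KRT8 and KRT19 led, then LGALS3 (92.6 ± 0.2) and GATA3 (86.4 ± 0.7). The transcription factors followed in the order TFAP2A (79.99 ± 1.86), TFAP2C (75.4 ± 1.7), GATA2 (73.0 ± 2.6) and HAND1 (46.6 ± 3.8), the last detected on 4 channels. TFAP2C and GATA2 did not differ beyond their spread between extracts. GATA3 lay at 87.2, 86.2 and 85.8 in the 3 extracts, all above every value of the other transcription factors. ELF5 was detected on no channel.

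The hypoblast, endoderm and yolk sac list (median 73.1, 18 of 25 on all 6) was headed by secreted proteins, namely fibronectin FN1 (95.2 ± 0.9), transferrin TF (93.8 ± 1.4), the apolipoprotein APOM (91.6 ± 1.4) and the retinol carrier RBP4 (87.1 ± 3.0). RBP4 was at 90.05, 87.1 and 84.1 in extracts 1, 2 and 3, and APOA1 at 85.3, 81.8 and 80.2, so both were lowest in extract 3. Extract and slide cannot be told apart here. GATA4, a transcription factor of this lineage, was at 56.1 ± 2.2. Of the serum proteins of later yolk sac and liver, ALB and FGA were detected on no channel, AFP on 2 and TTR on 1.

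**Figure D2:**
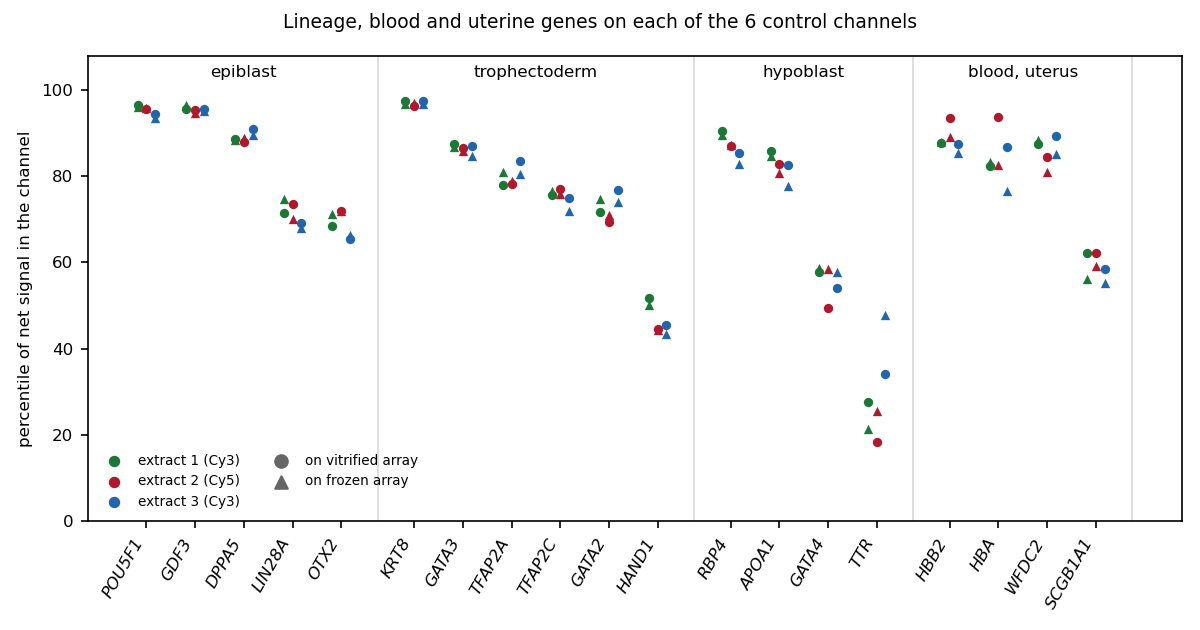
The y axis is the percentile of a gene's net signal within a channel, for 19 lineage, blood and uterine genes on each of the 6 control channels; colour gives the extract and dye, circles the vitrified and triangles the frozen array. POU5F1, GDF3 and KRT8 hold within narrow bands above 90, whereas HBA runs from 76.5 to 93.7 and TTR, detected on 1 channel, lies between 18.4 and 47.9.

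Signals and receptors were weaker. Among growth factor and cytokine ligands the median was 45.8, with 12 of 42 detected on all 6 channels and 12 on none, a smaller and a larger share than among all named genes. BMP2 (89.8 ± 0.4) was the highest, and its 8 probes lay between 79.1 and 89.8. PTGS2 (88.9 ± 2.3), an enzyme of prostaglandin synthesis that stands in this list too, IGF1 (80.7 ± 1.1) and WNT2 (77.7 ± 1.1) followed. GDF9, FGF1, FGF7, FGF8 and SHH were among those detected on none.

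Among signalling receptors, a list that also holds the ligand LEP (median 50.2, 14 of 38 on all 6), the adiponectin receptors ADIPOR1 (96.5 ± 0.2) and ADIPOR2 (85.5 ± 0.5), the FGF receptor FGFR4 (85.6 ± 0.9) and the Wnt receptor FZD2 (82.5 ± 2.0) led. MET, ESR1, ESR2, TGFBR2 and LEPR were detected on no channel.

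In gastrulation and early mesoderm genes (median 43.1, 6 of 18 on all 6) the Wnt inhibitor DKK1 (91.1 ± 2.0) and BMP2 were far above the rest, and CER1 (64.1 ± 1.8), another secreted inhibitor, and BMP4 (62.6 ± 1.7) came next. DKK1 lay at 93.4 in extract 1 and at 89.92 and 89.95 in extracts 2 and 3. WNT8A, FGF8 and MSGN1 were detected on none, and the mesoderm factor TBXT on 1 channel.

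Prostaglandin and steroid synthesis (median 63.3, 9 of 15 on all 6) was led by AKR1B1 (97.5 ± 0.3), the electron carrier FDX1 (96.6 ± 0.2), PTGS2 and HSD17B4. Imprinted genes (median 68.7, 6 of 11 on all 6) were led by GNAS (96.1 ± 0.1), UBE3A, SNRPN and GRB10, and MEST was detected on no channel. In the extracellular matrix list (median 59.6, 21 of 38 on all 6) the integrin chains ITGB1 (97.5 ± 0.2) and ITGA6 (94.5 ± 0.1) and FN1 led, and COL1A1, COL10A1, VTN, ACAN and LAMA3 were detected on none.

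Lists for other tissues lay low, with exceptions. Oocyte and germ line genes had the lowest median (26.8), with 3 of 22 detected on all 6 channels and 12 on none. OOEP, of the egg's subcortical complex, was at 94.2 ± 0.2, with 94.3, 94.1 and 94.3 in the 3 extracts, and ASZ1 (66.1 ± 0.9) and the linker histone H1-8 (60.7 ± 0.7) were the others detected on all 6. The egg coat genes ZP2, ZP3 and ZP4, the meiosis gene SPO11 and DAZL were detected on none. In the eye and sensory list 1 of 17 was detected on all 6, the lens crystallin CRYAA (86.0 ± 1.4), whose other probe reached 36.8. In the nervous system list 5 of 28 were, led by ENO2 (92.3 ± 1.3), an enzyme of glycolysis, and CALB1 (80.5 ± 2.4).

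In the liver and kidney list (median 44.9, 14 of 36 on all 6) the urea cycle enzymes OTC (95.2 ± 0.6) and CPS1 (88.4 ± 1.3) stood far above the rest apart from CYP7A1, which is taken up further on. OTC lay at 95.4, 95.7 and 94.5 in the 3 extracts, and the lowest of its 3 probes was at 94.5. ALB, ARG1, TDO2 and CYP2C4 were detected on none. In the hormone and pancreas list (median 44.1, 7 of 20 on all 6) CPB1, a carboxypeptidase of pancreatic juice, reached 97.5 ± 0.3 and its other probe 97.0, and LHB reached 92.2 ± 1.3. In the muscle list (median 53.3, 13 of 26 on all 6) ACTA1, MYH6 (92.4 ± 0.9), TNNC2 (91.0 ± 1.5) and MYH7 (89.9 ± 0.4) led. The 4 probes of MYH6 ran from 55.6 to 92.4 and the 2 of MYH7 from 32.5 to 89.9, and TNNT3, MYL1 and MYH1 were detected on none.

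Markers of tissues that could come along with a flushed embryo were mixed. Of uterine markers, WFDC2 (86.0 ± 2.8), SCGB1A1, which encodes uteroglobin (58.9 ± 2.0, the lowest of 10 probes at 42.6), and OVGP1 (56.6 ± 2.7) were detected on all 6 channels and FOXJ1 on none. CST3, a secreted protease inhibitor of many tissues, was the highest of the uterine list at 97.7 ± 0.2, and the list median was 37.1. Of leukocyte markers none of 4 matched was detected on all 6 channels, and PTPRC and CD3E were detected on none. In the blood and immune list (median 49.6, 8 of 22 on all 6) single lymphoid or myeloid genes were detected on all 6 channels, among them ITGB2 (82.3), MS4A1 (63.0) and CD4 (60.3). Of red cell genes HBB2 (88.5 ± 2.5) and HBA (84.2 ± 3.5), the globin chains of red cells, were highest by their brightest probes (the lowest were at 56.1 and 57.4), while ALAS2 and SLC4A1, also red cell markers, were detected on 4 channels each. The net signal of HBA was 699, 10940 and 1105 in extracts 1, 2 and 3 on the vitrified arrays and 815, 1833 and 465 on the frozen arrays. Extract 2 was thus at the 93.7th percentile on one of its arrays and at the 82.5th on the other. HBB2 went the same way, at 93.4 and 89.2. The part of blood in these signals was not tested.

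Probes were also grouped by the family or cDNA library that their description names; these groups, and the probe pairs further on, were chosen after values were seen. Of 495 immunoglobulin probes 13 (2.63%) were detected on all 6 channels and 352 on none, and of 432 olfactory receptor probes 40 were detected on all 6 and 297 on none. Shares detected on all 6 were 10.14% for T cell receptors, 19.3% for homeobox proteins, 21.1% for ion channels, 27.9% for collagens, 49.5% for solute carriers and 51.1% for zinc finger proteins, beside 44.1% of all probes. No zinc finger probe of 562 lay above the 95th percentile, where 4.97% of all probes did. Probes of one family often overlap or target one gene, so these counts are not of independent genes.

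Many probes were designed from tissue cDNA libraries, and those made from reproductive tract and early embryos were detected more often than those from the eye. All 34 oviduct probes and 22 of 23 ovary probes were detected on all 6 channels, with medians of 95.8 and 95.6. For the subtracted library of morula and blastocyst the share was 73.1% of 175 probes (median 88.3), and for that of 4-cell embryo and morula 63.4% of 145 (median 84.2). The shares were 59.5% of 296 heart probes and 41.9% of 4801 probes of the trigeminal nerve. For the eye they were 49.4% of 2243 cornea probes, 38.7% of 816 lens probes and 39.4% of 2187 probes of the eye without both. Probes of a library can also come from the same cDNA clone, so these counts are not of independent genes either.

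**Figure D3:**
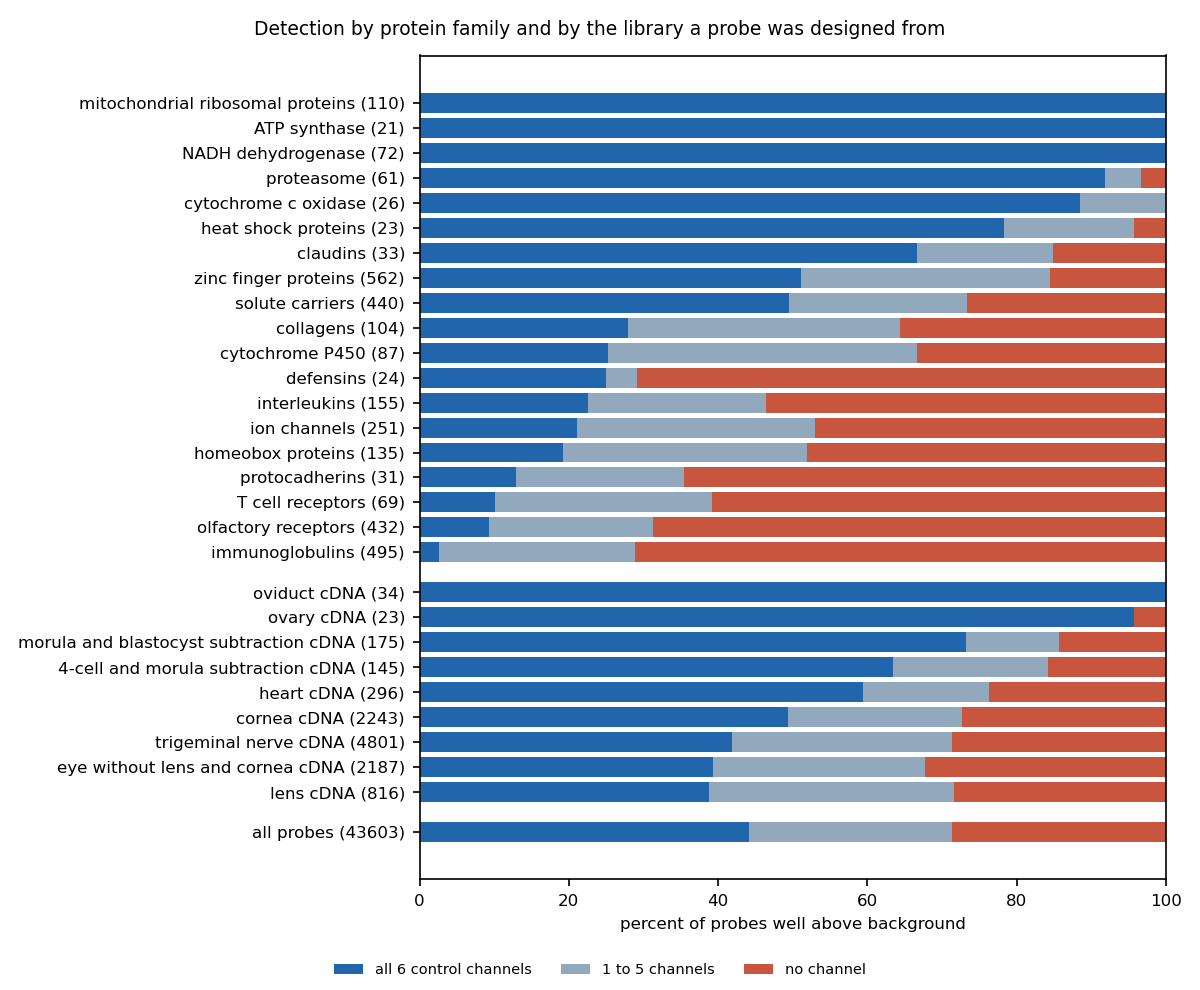
Bars give the percent of probes (x axis) detected on all 6 control channels, on 1 to 5 and on none, for 19 protein families named in the probe descriptions, 9 cDNA libraries and all probes, with the number of probes in brackets. The bars of NADH dehydrogenase, ATP synthase and mitochondrial ribosomal proteins reach 100% on all 6 channels, that of cytochrome c oxidase 88.5%, immunoglobulins 2.63%, and all probes 44.1%.

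Several genes of other organs stood at the very top by a probe that holds a run of alternating C and T. These genes were picked after their values were seen. The probes are shown as 30 bases around the run, which is in capitals, with the percentile following in the next paragraph.
PTGER2: aagaTCTCTCTCTCTCTCTCTCTCTaactt
CETP: tctctggctgTCTCTCTCTgcctctcaagt
CYP7A1: ggatggaagaaCTCTCTCTttttctgtctc
For CETP and CYP7A1 a probe without the run, from another stretch of the transcript, is given whole.
CETP without run: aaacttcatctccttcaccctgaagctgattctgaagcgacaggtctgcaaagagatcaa
CYP7A1 without run: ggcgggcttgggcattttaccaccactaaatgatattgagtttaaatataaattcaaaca

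PTGER2, a prostaglandin E receptor, was at 99.7 ± 0.3 by the run probe, at chr17:71210559-71210618, and the brightest of its 5 other probes was detected on no channel. Its net signal was 31497, 556421 and 68963 in extracts 1, 2 and 3 on the vitrified arrays by that probe and 42, 24 and 69 by the brightest of the others. CETP, a lipid transfer protein of plasma, was at 99.3 ± 0.3 by a run probe, and its other probe was detected on no channel. CYP7A1, the rate-limiting enzyme of bile acid synthesis in liver, was at 98.2 ± 0.2 by the run probe and at 35.6 ± 3.7 by the best of 3 others, which was detected on 2 channels.

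Over the array, 190 probes (0.436%) hold CTCTCTCT or TCTCTCTC on the probe strand. Their median lay at 92.5, and 89 of them (46.8%) lay above the 95th percentile, where 4.97% of all probes did. Probes with the reverse complement, AGAGAGAG or GAGAGAGA, numbered 232 and had a median at 30.8 with 8 above the 95th. The CT run was not the only bright repeat. Of 120 probes with GTGTGTGT or TGTGTGTG 25 (20.8%) lay above the 95th percentile, with a median at 68.1, and of 56 probes with a short repeat of A and T rich in A 35 (62.5%) did, with a median at 97.8. In 23 genes with both kinds of probe, the best run probe was above all others of the gene in 21, with medians of 89.9 (run) and 53.5 (best other). For 37 named genes the brightest probe holds the run, and 4 of these are among the 25 highest genes. Without run probes, 94 of the 100 highest genes were still among the 100 highest, and PTGER2, CETP and CYP7A1 had the values of their other probes.

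**Figure D4:**
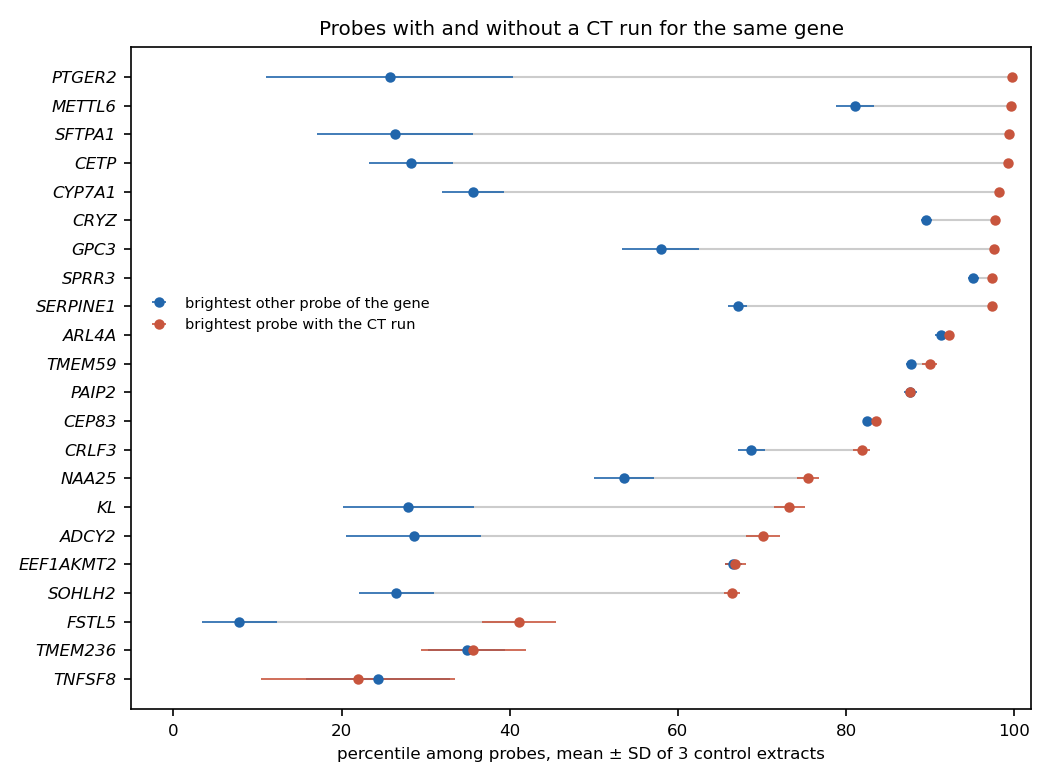
For 22 of the 23 genes with probes of both kinds, the x axis gives the percentile (mean ± SD over 3 control extracts) of the brightest probe with the CT run (red) and of the brightest other probe of the same gene (blue). The red point is to the right in 20 of the genes drawn, by over 60 percentile points for PTGER2, SFTPA1, CETP and CYP7A1.

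Pairs of probes that read the same stretch on opposite strands show which strand carries the signal. The bases that both probes share as reverse complements are in capitals, and in each pair the first probe is the brighter.
RPLP1: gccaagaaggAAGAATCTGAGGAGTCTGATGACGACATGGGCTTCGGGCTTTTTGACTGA
RPLP1 opposite strand: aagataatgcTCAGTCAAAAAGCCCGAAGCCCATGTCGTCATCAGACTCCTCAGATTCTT
HSPD1: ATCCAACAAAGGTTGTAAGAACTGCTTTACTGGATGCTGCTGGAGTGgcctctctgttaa
HSPD1 opposite strand: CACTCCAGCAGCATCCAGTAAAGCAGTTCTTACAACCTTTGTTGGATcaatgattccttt
RPS9: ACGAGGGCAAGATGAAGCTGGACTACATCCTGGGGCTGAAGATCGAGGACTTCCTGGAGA
RPS9 opposite strand: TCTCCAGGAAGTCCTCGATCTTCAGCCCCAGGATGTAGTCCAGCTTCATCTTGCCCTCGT

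RPLP1 was at 99.87 ± 0.11 and its opposite probe, which shares 50 bases, at 50.5 ± 1.5. HSPD1, a mitochondrial chaperonin subunit, was at 99.28 ± 0.09 against 52.5 ± 4.9 over 47 shared bases, and RPS9 at 99.39 ± 0.10 against 67.4 ± 1.1 over all 60. The opposite probes of HSPD1 and RPS9 were still detected on all 6 channels. On the array, 490 pairs share at least 30 bases on opposite strands. The brighter member of a pair had a median of 85.8 and the dimmer one of 33.1, and the median gap was 44.7 percentile points. In 289 pairs the brighter probe was above the 80th percentile, and in 0 of them was the dimmer one. For comparison, 36031 pairs that share at least 30 bases on the same strand had a median gap of 3.06. The length of overlap was not matched between both sets of pairs. A share of 76.7% of the opposite-strand pairs differed by over 30 points, against 0.799% of the same-strand pairs. Which member is brighter was read from the same values, so the gaps are a description, and many pairs share a probe.

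**Figure D5:**
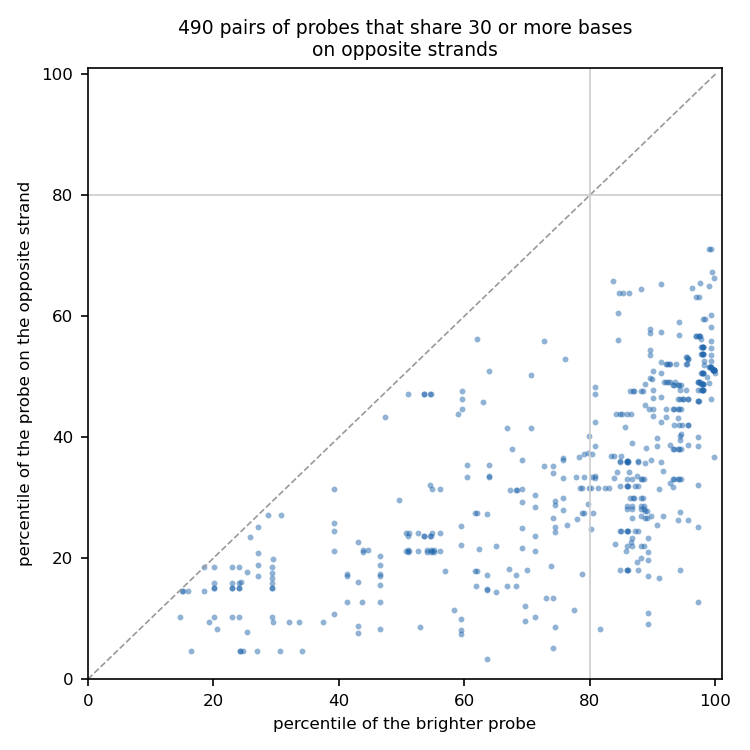
Each point is one of 490 pairs of probes that share at least 30 bases on opposite strands, with the percentile of the brighter probe on the x axis and of the other on the y axis (mean over 3 control extracts). No point lies in the upper right corner beyond the 80th percentile on both axes, and the highest dimmer probe is at 71.1.

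Of 4387 named genes with more than 1 probe, the median range from lowest to highest probe was 7.79 points, and in 286 (6.52%) it was over 30.

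The last question was how far a control level depends on the extract and the array. Among genes detected on all 6 channels, the median SD over extracts was 1.03 percentile points. The widest SDs of such genes were those of SLC35F3 (9.15), PDCL2 (9.02), GATB (7.96), ST8SIA2 (6.14), RNF222 (6.01), ARL6IP5 (5.99), EMP1 (5.93), TYRO3 (5.78), PLA2G2D (5.71) and TOM1 (5.62). RNF222, of the ring finger proteins, lay at 90.08 in extract 1 and at 80.03 and 79.34 in extracts 2 and 3. Its values for extracts 2 and 3 were 86.3 and 87.0 on the vitrified and 73.8 and 71.7 on the frozen arrays, so the spread lies between arrays of an extract as well. On the log2 scale after quantile normalisation, the median SD over extracts was 0.135 among 25635 probes detected on at least 3 channels. Both arrays of an extract differed by a median of 0.152, 0.163 and 0.237 for extracts 1, 2 and 3. Their control channels differed in spike-in ratio too, so these values are not of the array alone. No probe (0%) differed between the control channels of vitrified and of frozen arrays by limma at an adjusted p of 0.05 (0 of 25635 tested, smallest adjusted p 0.656). In this fit 1853 probes had an unadjusted p under 0.05, and with the replicate block 0 were called and 2923 had one. Both counts are above a share of 0.05 of the 25635 tested, the share awaited if no probe differed. Without replicate 1, 17 probes were called, all higher on the vitrified arrays. A count of 0 does not show that the levels were equal.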

How the data were processed

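RNA of the 6 control channels was measured on 60-base two-colour arrays; total RNA was amplified and dye-labelled, per the labels. The authors deposited scanner output from Agilent Feature Extraction 10.10.1.1 (per the submitters' processing notes). Per the file headers it holds intensity values per spot: mean signal, median local background and a processed signal that the software had background-subtracted and dye-normalised. Other flags, for outlier, saturated and well-above-background spots, are the scanner software's, as deposited by the authors.

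Here control spots and outlier spots (3 to 17 per channel) were left out and repeat spots averaged. Of 43603 probes, 21314 got 1 symbol from the arrays' accessions through RefSeq's gene table (assembly mOryCun1.1). A probe counted as detected on a channel when most of its spots were flagged well above background. For the array comparison, normexp (offset 50) and quantile normalisation over 6 control channels preceded limma 3.58.1 (R 4.3.3), with Benjamini-Hochberg adjustment; it was tested on simulated data. Precision is limited by 3 extracts. Same-numbered channels deviated together (correlations 0.233, 0.222 and 0.171). They also share a dye, and those of extracts 1 and 3 share a slide. These correlations therefore cannot show that the labels' numbers pair the arrays, and the pairing rests on the labels.

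Members, gene lists and tests were chosen with earlier results of these data known. Named genes were the 25 highest, up to 4 highest, 3 lowest and 5 undetected per list, the 10 with the widest SD, lineage genes, SCGB1A1, HBA and HBB2; further names were chosen after their values were seen. Promoter and protein sequences were not used. A few genes that this rule names are not reported here.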

Additional observations from a re-analysis of the deposited data

Results flagged for a closer look

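Signals in the spike-in spots, which no comparison used, stood far above the negative controls on all 6 control channels. The lowest net signal of E1A_r60_a22 was 1564 (replicate 3, vitrified array), where the negative-control spots of that channel had a median of 51.3. The ratio of E1A_r60_n9 to E1A_r60_a22 was highest at 15.7 (replicate 1, vitrified array) and 0.161 on the other array of the same extract. No group of the labels holds over 3 control channels, so outlying channels were not tested.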

How the results depend on the processing

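The count of genes detected on all 6 control channels (5436) lay between 5025 and 7292 in the alternatives that kept all 6. Alternatives with fewer channels ask for detection on fewer, and the highest of their counts was 7546, for the red control channels only. The list order hardly moved under every alternative tried (Spearman of list medians at least 0.989), and normexp left every percentile as it was. Genes detected on no channel numbered 248 with the scanner's flag for positive and significant signal, and between 1481 and 2416 without 1 replicate, highest without replicate 2, the red extract. Of the 100 highest genes 92 to 100 were kept. Medians of 10 of 31 lists moved by over 5 points, all down (by up to 16.5), when a gene was the median of its probes; no other alternative moved one so far. The median SD over extracts (0.135) was 0.395 with median scaling and 0.184 with the processed signal, and the cause was not tested. It was 0.171 on vitrified and 0.164 on frozen arrays only. There an extract is a single channel and not the mean of both arrays, so these SDs are not like for like with 0.135. Between arrays 0 probes were called in each alternative, replicate block included, except 17 without replicate 1 (0 to 17 over left-out replicates). Leaving out run probes was chosen after seeing the data. Dim probes limit all counts: undetected is not absent.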
